A study of Homo sapiens with 9 samples.

Results

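Metallothioneins are small cysteine-rich proteins that bind zinc, copper and cadmium. The genes followed here were the metallothioneins MT1E, MT1F, MT1G, MT1M, MT1X and MT2A, the zinc-sensing transcription factor MTF1 and the zinc transporters SLC30A1, SLC39A10 and SLC39A14. They were chosen by name as metallothioneins and zinc-handling genes. The rule uses no value, but the names were picked with earlier results of these data known. Of these 10 genes, 8 were among the 32906 listed genes, and MT1G and MT1M were not analysed here. All 8 passed the filter on low values (group mean of 1 FPKM or more in any group, met by 14363 genes), MT1F only through its mean with Si-KDM4C#2.

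RNA was sequenced from cells labelled Huh7, an established human hepatocellular carcinoma line, 48 hours after transfection. The 9 libraries fell into 3 groups of 3: a Scramble control and the siRNAs Si-KDM4C#1 and Si-KDM4C#2, both against the histone lysine demethylase KDM4C. The groups share the cell line and the 48 hours in culture after transfection, and untransfected cells were not analysed here. The values are FPKM (fragments per kilobase of exon, scaled to the fragments of the library), from libraries of 14597503 to 18058557 recovered fragments. KDM4C itself had a mean of 4.69 FPKM in Scramble, and of 1.14 and 0.287 after transfection of Si-KDM4C#1 and Si-KDM4C#2. Of 12 hepatocyte markers, 9 were listed and all 9 stayed under 1 FPKM in every library, with the highest at 0.248. Cells with this label thus showed none of the listed hepatocyte markers at 1 FPKM, and the identity of the cells was not tested. Of 5 epithelial markers, 4 were listed, and 2 of these stayed under 1 FPKM in every library. The epithelial markers, nearly all from the keratins KRT8 and KRT18, summed to 330 to 353 FPKM in Scramble, 290 to 309 with Si-KDM4C#1 and 240 to 254 with Si-KDM4C#2. All 4 listed leukocyte and all 3 endothelial markers stayed under 1 FPKM. Of the 5 fibroblast markers, all listed, 2 stayed under 1 FPKM in every library. The fibroblast markers summed to 47.4 to 51.0 FPKM in Scramble, 55.8 to 58.7 with Si-KDM4C#1 and 78.5 to 79.6 with the other siRNA, nearly all from COL1A1, LUM and COL3A1. The epithelial sum thus was lower and the fibroblast sum higher in all knockdown libraries, and the part of these shifts in the results was not tested. Nothing in the labels says that the libraries of a group came from separate cultures, so p-values measure the spread between these libraries, which may be technical. In such bulk RNA, fewer cells of a type and less RNA per cell cannot be told apart.

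As background, free zinc in the cell is sensed by the zinc-finger factor MTF1, which binds metal response elements in promoters and switches on the metallothionein genes and SLC30A1. SLC30A1 (ZnT1) carries zinc out of the cell across the plasma membrane. The SLC39 (ZIP) proteins carry zinc into the cytosol, and hepatocytes take up zinc through SLC39A14 (ZIP14), which also carries iron and manganese. Metallothionein genes also respond to glucocorticoids and to oxidative stress.

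The metallothionein genes listed here lie on chromosome 16, on the plus strand of GRCh38, inside a cluster of 16 annotated genes from 56565049 to 56684196. MT2A (ENSG00000125148) spans 56608199 to 56609497, MT1E (ENSG00000169715) 56625475 to 56627112, MT1F (ENSG00000198417) 56657694 to 56660698 and MT1X (ENSG00000187193) 56682424 to 56684196. Their coding sequences, taken from transcripts with coding parts of equal length, were pairwise 88.5% to 92.3% identical. Of the 50-base stretches in their transcripts, 18.3% were shared with transcripts of other genes for MT1X, 7.1% for MT1E, 3.02% for MT2A and 1.22% for MT1F. The fragments recovered for these genes were whole numbers, and how the counting treated fragments from such stretches is not given. The level of each single metallothionein gene is thus uncertain.

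The stretch just upstream of the transcription start is shown for the members whose windows held the core of the metal response element, the sequence through which MTF1 acts. The core was searched as TGCACNC and TGCGCNC on both strands, in the 250 bases before the RefSeq start (GRCh38.p14). Capitals mark the matches, and each line reads 5′ to 3′ on the strand of the gene.
MT2A, chr16:56608334-56608583: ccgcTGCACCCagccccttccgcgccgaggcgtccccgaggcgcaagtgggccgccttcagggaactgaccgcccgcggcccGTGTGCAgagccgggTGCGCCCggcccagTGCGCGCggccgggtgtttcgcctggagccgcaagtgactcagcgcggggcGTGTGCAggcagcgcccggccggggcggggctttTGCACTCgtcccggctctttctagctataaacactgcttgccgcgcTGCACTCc
MT1X, chr16:56682220-56682469: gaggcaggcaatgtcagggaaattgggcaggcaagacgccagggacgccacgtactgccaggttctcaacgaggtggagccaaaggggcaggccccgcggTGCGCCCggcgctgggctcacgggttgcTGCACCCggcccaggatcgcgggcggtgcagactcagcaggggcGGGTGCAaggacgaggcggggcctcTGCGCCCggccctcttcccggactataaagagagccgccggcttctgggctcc
SLC30A1, chr1:211579162-211579411, minus strand: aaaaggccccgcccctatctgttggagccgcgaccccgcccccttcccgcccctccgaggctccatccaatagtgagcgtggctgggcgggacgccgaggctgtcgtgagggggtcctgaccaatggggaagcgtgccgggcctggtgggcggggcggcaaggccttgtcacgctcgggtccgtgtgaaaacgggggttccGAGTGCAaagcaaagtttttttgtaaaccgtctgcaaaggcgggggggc

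MT2A held 7 cores, 5 on its own strand and 2 on the other. At least 7 cores were found in 0.0313% of the 35116 windows of the same length in the promoter table. MT1X held 4 cores, a number reached by 0.37% of the windows. SLC30A1 held 1 core, on the other strand, and at least 1 was found in 24.8% of all windows. These shares are over all windows and were not matched for GC content. The windows of MT2A, MT1X and SLC30A1 held 73.2%, 70% and 66.4% GC. The letters searched were not in the window of MTF1 or in those of the 2 start sites of SLC39A10. The MT2A and MT1X starts used are the RefSeq ones, which lie inside the gene spans of the annotation used for the levels, and the SLC30A1 start lies outside its span. MT1E, MT1F and SLC39A14 had no entry in the table.

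**Figure D1:**
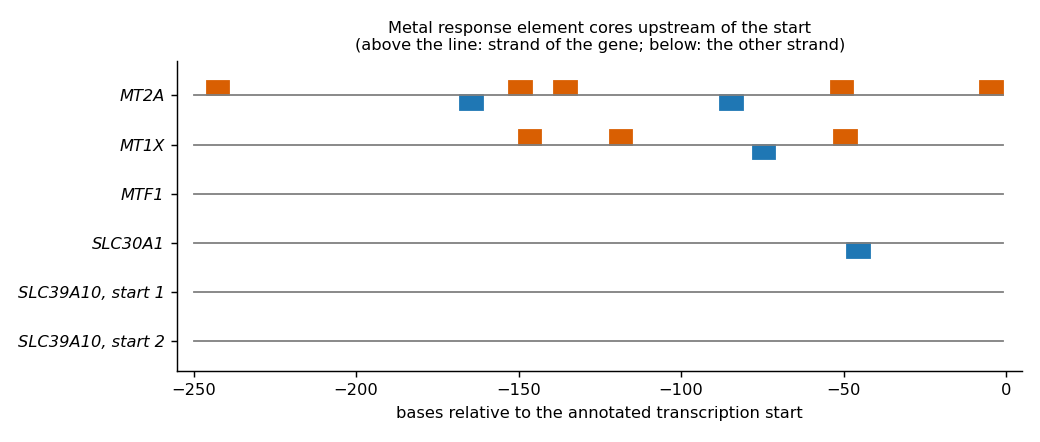
Position of metal response element cores (TGCACNC or TGCGCNC, boxes) in the 250 bases before the annotated start of each member with an entry, in bases from the start. Orange boxes above a line lie on the strand of the gene and blue boxes below it on the other strand. MT2A carries 7 cores from 246 to 2 bases before the start, MT1X 4 and SLC30A1 1.

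Silencing of KDM4C with either siRNA was accompanied by higher MT2A, MT1E and MT1X mRNA, at 2.19 to 4.37 times the Scramble mean. MTF1, SLC30A1 and SLC39A14 also rose with both siRNAs, by 1.27 to 1.97 times. SLC39A10 fell with both, to 0.69 and 0.504 of the Scramble mean. MT1F, which passed the filter on low values only through Si-KDM4C#2, rose with this siRNA and did not pass the test with Si-KDM4C#1. Both comparisons use the same 3 Scramble libraries, so their values are set side by side and are not independent of each other.

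With Si-KDM4C#1, 3 of the 8 members (MT2A, MT1E and MT1X) were called higher at FDR < 0.05 and a fold change > 2, against 4.04% of all genes tested. With these limits 0 were called lower, against 4.83% (limma-trend on log2(FPKM + 1), Benjamini-Hochberg adjustment). At an unadjusted p under 0.05, 1 member was lower, and limma voom on recovered fragments also called 0, beside 1824 of 16010 genes. By FDR alone 6 members were higher, against 31.7% of genes, and 1 was lower, against 33.9%, so that most genes tested passed this limit in 1 direction or the other. For 7 members the groups did not overlap, against 69.4% of genes. The median log2 fold change was 0.71 over the members and -0.03 over all genes.

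With Si-KDM4C#2, the same 3 members were called higher, against 2.60% of genes, and 0 lower, against 2.30% (limma-trend). With limma voom and with a pseudocount of 0.1, 4 were called higher, MT1F being added at 1.00 and 1.01 on the log2 scale. These settings also called more genes higher, 873 of 16010 and 758 of 14363, beside 373 of 14363 without them. At an unadjusted p under 0.05, 1 member was lower, and limma voom called this 1, SLC39A10, beside 1120 of 16010 genes. By FDR alone 7 members were higher, against 34.4% of genes, and 1 lower, against 25.0%. For all 8 members the groups did not overlap, against 65.3% of genes. MT1F, past the filter on low values only through its mean with Si-KDM4C#2, is in the 7, in the 8 and in the 4 with the pseudocount of 0.1. The median log2 fold change was 0.69 over the members, MT1F included, and 0.06 over all genes.

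**Figure D2:**
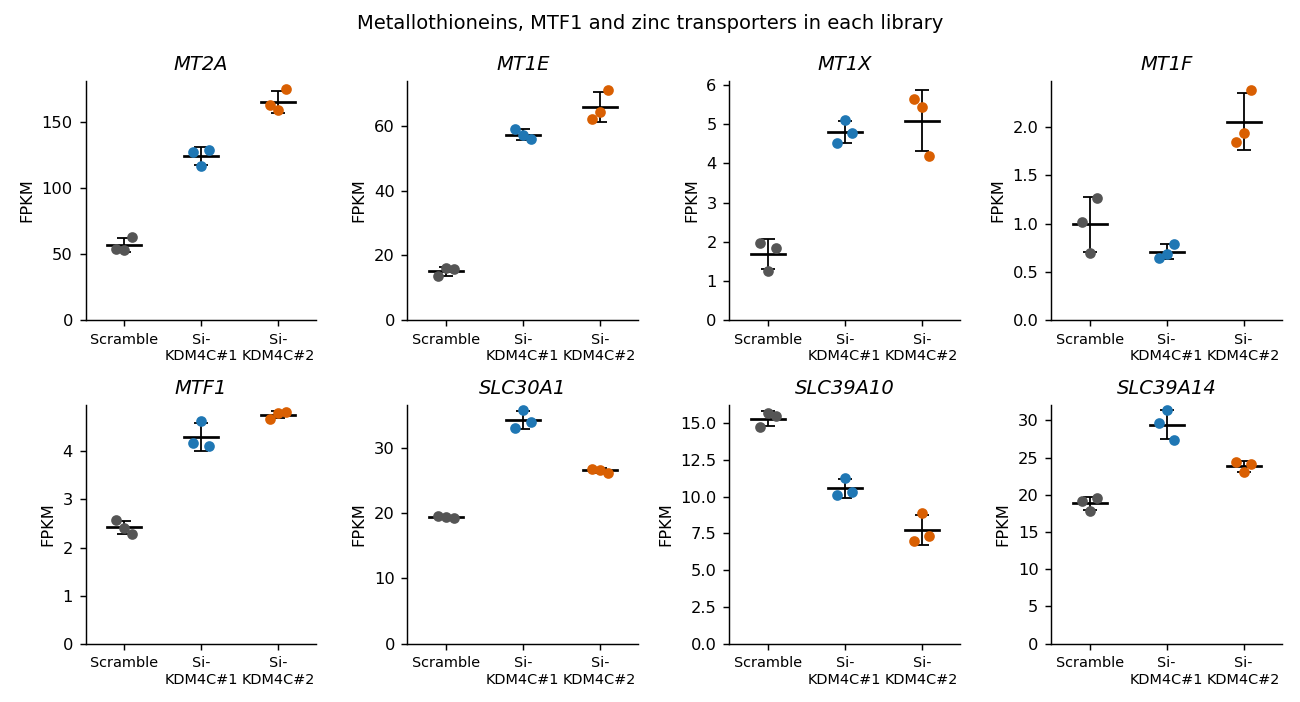
FPKM (vertical axes, from 0) of the 8 listed members in each of the 9 libraries. Points are libraries, horizontal bars the group means and whiskers the SD (n = 3). MT2A, MT1E, MT1X, MTF1, SLC30A1 and SLC39A14 were higher in all 6 knockdown libraries than in all 3 Scramble libraries, and SLC39A10 was lower.

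MT2A, the most abundant metallothionein listed, ranked 608 of 32906 genes by mean FPKM in Scramble. Its level was 53.9, 53.2 and 63.1 FPKM in Scramble, 127, 116 and 128 after Si-KDM4C#1, and 162, 159 and 175 after Si-KDM4C#2. The 3 groups were fully separated, with Scramble lowest and Si-KDM4C#2 highest. The log2 fold change was 1.12 ± 0.070 (SE) with Si-KDM4C#1 (FDR 6.4e-07, limma-trend, n = 3 libraries per group) and 1.53 ± 0.070 with Si-KDM4C#2 (FDR 1.86e-07). The change with Si-KDM4C#1 was under the fold limit after quantile normalization (0.92) and after adjustment for GC content (0.99). The difference between the siRNAs was 0.41 (FDR 0.000626).

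MT1E had the largest rise of the 8 members with each siRNA. It was at 13.5, 16.1 and 15.8 FPKM in Scramble, 59.1, 57.2 and 56.0 after Si-KDM4C#1, and 62.2, 64.5 and 71.1 after Si-KDM4C#2. All knockdown libraries stood far above all Scramble libraries, and the siRNA groups lay close to each other without overlap. The log2 fold change was 1.86 ± 0.070 (FDR 3.11e-08, limma-trend) with Si-KDM4C#1 and 2.06 ± 0.070 (FDR 4.57e-08) with Si-KDM4C#2. Si-KDM4C#2 exceeded Si-KDM4C#1 by 0.19 on the log2 scale (FDR 0.0342), and this difference was past the FDR limit neither without Si-KDM4C#1 replicate 2 (0.0777) or 3 (0.0962) nor without Si-KDM4C#2 replicate 2 (0.0561) or 3 (0.126).

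MT1X rested on 35 to 155 fragments per library. It was at 1.98, 1.24 and 1.84 FPKM in Scramble, 4.53, 5.10 and 4.77 after Si-KDM4C#1, and 5.64, 5.44 and 4.20 after Si-KDM4C#2. Knockdown libraries were all above Scramble, while those of the siRNAs overlapped. The log2 fold change was 1.12 ± 0.12 (FDR 2.95e-05, limma-trend) with Si-KDM4C#1 and 1.18 ± 0.12 (FDR 2.93e-05) with Si-KDM4C#2. Without Scramble replicate 2 the change with Si-KDM4C#1 was 0.99 (FDR 6.66e-05), under the fold limit. Between the siRNAs it was 0.06 (95% confidence interval -0.21 to 0.34, FDR 0.675), a difference that turned negative without Si-KDM4C#2 replicate 1 (-0.003) and after quantile normalization (-0.06).

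MT1F, the lowest of the 4 metallothioneins per length, rested on only 19 to 77 fragments per library. It was at 1.02, 0.699 and 1.27 FPKM in Scramble, 0.645, 0.689 and 0.791 after Si-KDM4C#1, and 1.84, 1.94 and 2.39 after Si-KDM4C#2. The Si-KDM4C#2 libraries were above all others, and the Si-KDM4C#1 libraries overlapped with Scramble. The log2 fold change with Si-KDM4C#2 was 0.62 ± 0.13 (FDR 0.00204, limma-trend), with 2.07 times the Scramble mean. With Si-KDM4C#1 it was -0.21 (95% confidence interval -0.50 to 0.07, FDR 0.161), and it passed the FDR limit without Scramble replicate 2 (-0.32, FDR 0.0427) and after GC adjustment (-0.36, FDR 0.0328). The direct difference between the siRNAs was 0.84 ± 0.13 (FDR 0.000282). Its mean was under 1 FPKM in Scramble (0.994) and with Si-KDM4C#1 (0.708), so MT1F was among the genes tested only because it was high with Si-KDM4C#2 (2.06). In the fit of all listed genes, with no filter, the FDR was 0.00838 for Si-KDM4C#2 against Scramble and 0.00156 for Si-KDM4C#2 against Si-KDM4C#1. The scale of log2(FPKM + 1) understates the change of such a low gene.

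The 4 metallothioneins together summed to 70.4, 71.2 and 81.9 FPKM in Scramble, 192, 179 and 190 after Si-KDM4C#1, and 232, 230 and 252 after Si-KDM4C#2. Each group was separate from the others, and MT2A gave most of the sum in all of them. The share of MT2A in the sum was 76.1% ± 1.2 (SD, n = 3) in Scramble, 66.3% ± 1.4 after Si-KDM4C#1 and 69.3% ± 0.60 after Si-KDM4C#2. The ratio of MT1E to MT2A was 0.250, 0.303 and 0.250 in Scramble, 0.464, 0.492 and 0.437 after Si-KDM4C#1, and 0.383, 0.407 and 0.407 after Si-KDM4C#2. MT1E thus made up more of the pool in all knockdown libraries, a description with no test. Levels between these genes depend on the exon lengths used (1299 bases for MT2A and 1052 for MT1E), which cover all annotated transcripts of each gene.

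**Figure D3:**
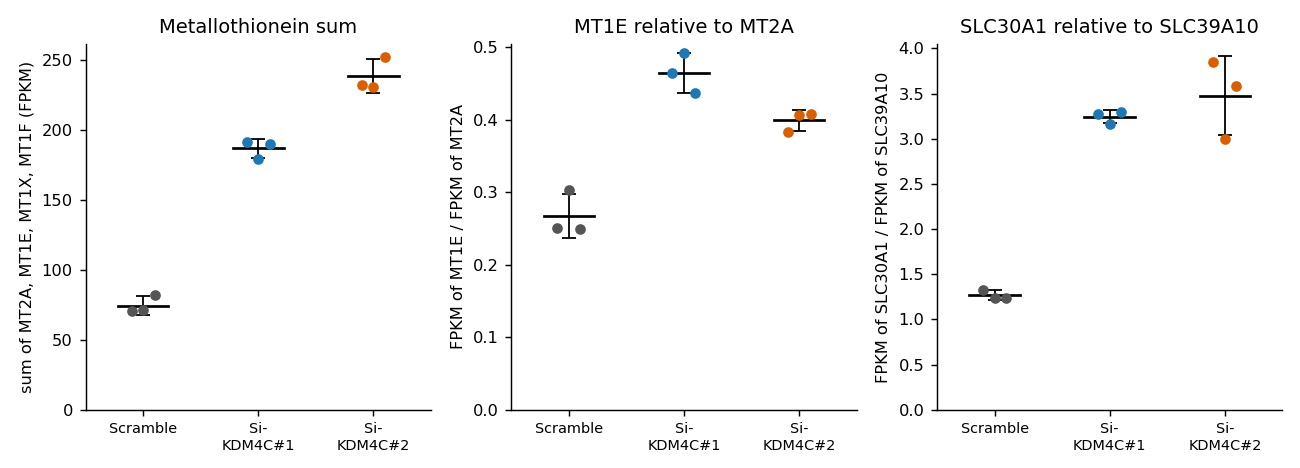
Summed FPKM of MT2A, MT1E, MT1X and MT1F (left), FPKM of MT1E over that of MT2A (middle) and FPKM of SLC30A1 over that of SLC39A10 (right), all from 0. Points are libraries, bars group means and whiskers the SD (n = 3). The sum rises from a mean of 74.5 in Scramble to 187 and 238 FPKM, and the right-hand ratio from 1.27 to 3.25 and 3.48.

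MTF1 (ENSG00000188786), the factor that drives metallothionein genes when zinc is high, maps to chr1:37809567-37859620 (minus strand). Its mRNA was at 2.57, 2.40 and 2.29 FPKM in Scramble, 4.18, 4.63 and 4.10 after Si-KDM4C#1, and 4.68, 4.79 and 4.83 after Si-KDM4C#2. Scramble libraries were the lowest and Si-KDM4C#2 libraries the highest, with no overlap of the 3 groups. The log2 fold change was 0.63 ± 0.059 (FDR 9.5e-06, limma-trend) with Si-KDM4C#1 and 0.75 ± 0.059 (FDR 4.66e-06) with Si-KDM4C#2, both under the fold limit. The siRNAs differed by 0.12 (95% confidence interval -0.01 to 0.26, FDR 0.0994), and by 0.17 (FDR 0.0484) without Si-KDM4C#1 replicate 2.

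SLC30A1 (ENSG00000170385), the zinc exporter, maps to chr1:211571568-211578742 (minus strand). It was at 19.6, 19.4 and 19.2 FPKM in Scramble, 33.0, 35.8 and 34.0 after Si-KDM4C#1, and 26.8, 26.6 and 26.2 after Si-KDM4C#2. The 3 groups were separate, and unlike for MT2A the highest level was in the Si-KDM4C#1 libraries. It rose by 0.79 ± 0.037 on the log2 scale with Si-KDM4C#1 (FDR 1.19e-07, limma-trend) and by 0.43 ± 0.037 with Si-KDM4C#2 (FDR 8.6e-06). Si-KDM4C#2 was lower than Si-KDM4C#1 (log2 fold change -0.36, FDR 2.48e-05). Its exons hold 38.0% GC, and adjusted for GC content the change with Si-KDM4C#1 was 1.09, past the fold limit.

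SLC39A14 (ENSG00000104635), the ZIP14 importer, maps to chr8:22367249-22434129 (plus strand). It was at 19.1, 17.8 and 19.6 FPKM in Scramble, 29.6, 31.3 and 27.3 after Si-KDM4C#1, and 24.4, 23.0 and 24.1 after Si-KDM4C#2. The order of the groups was the same as for SLC30A1, with no overlap. The log2 fold change was 0.61 ± 0.055 (FDR 7.35e-06, limma-trend) with Si-KDM4C#1 and 0.33 ± 0.055 (FDR 0.000725) with Si-KDM4C#2. Between the siRNAs it was -0.29 (FDR 0.00131). After quantile normalization the change with Si-KDM4C#2 was 0.21 (FDR 0.0121).

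SLC39A10 (ENSG00000196950), the ZIP10 importer of the plasma membrane, maps to chr2:195575977-195737702 (plus strand). It was at 14.8, 15.7 and 15.5 FPKM in Scramble, 10.1, 11.3 and 10.3 after Si-KDM4C#1, and 6.97, 8.90 and 7.30 after Si-KDM4C#2. This was the 1 member that was lower in all knockdown libraries, and the Si-KDM4C#2 libraries were the lowest. It fell by 0.50 ± 0.080 on the log2 scale with Si-KDM4C#1 (FDR 0.000375, limma-trend) and by 0.91 ± 0.080 with Si-KDM4C#2 (FDR 9.21e-06), and differed by -0.41 between them (FDR 0.00138). Adjusted for GC content, the change with Si-KDM4C#1 was -0.20 (FDR 0.0319). Without Si-KDM4C#2 replicate 2, and after quantile normalization (-1.03), the change with Si-KDM4C#2 passed the fold limit.

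The ratio of SLC30A1 to SLC39A10, an exporter over an importer, was 1.33, 1.24 and 1.24 in Scramble, 3.27, 3.17 and 3.30 after Si-KDM4C#1, and 3.85, 2.99 and 3.58 after Si-KDM4C#2. All knockdown libraries were above all Scramble libraries, and the siRNA groups overlapped. The ratio takes the only member that fell with both siRNAs as its importer. SLC39A14, the other importer among the members, rose with both (means of 18.9, 29.4 and 23.9 FPKM). The ratio thus describes this pair of genes and not zinc export over import as a whole.

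Set directly against each other, Si-KDM4C#2 and Si-KDM4C#1 differed for most members, but none passed both limits. With FDR < 0.05 and a fold change > 2, 0 members were higher with Si-KDM4C#2 (4.41% of genes) and 0 lower (2.49%, limma-trend). At an unadjusted p under 0.05 there were 3 in each direction, and limma voom called 1 higher, MT1F, beside 1549 of 16010 genes. By FDR alone MT2A, MT1E and MT1F (3 of 8, with MT1F past the filter only through Si-KDM4C#2) were higher, against 35.9% of genes, and SLC30A1, SLC39A10 and SLC39A14 (3 of 8) were lower, against 26.5%. Set against the background, 3 of 8 members is no clear excess in either direction. For 7 members, MT1F again among them, the groups did not overlap, against 69.3% of genes. The median log2 fold change was 0.09 over the members, MT1F included, and 0.08 over all genes. With 3 libraries against 3, an exact permutation test cannot go below a two-sided p of 0.1, which it reached in 22 of the 24 tests of a member in a comparison. The others were MT1F with Si-KDM4C#1 (0.2) and MT1X between the siRNAs (0.7). A p of 0.1 means only that the groups did not overlap. This held for 69.4% of all genes with Si-KDM4C#1, 65.3% with Si-KDM4C#2 and 69.3% between the siRNAs. The 22 include the tests of MT1F that involve Si-KDM4C#2, the group through which it passed the filter.

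**Figure D4:**
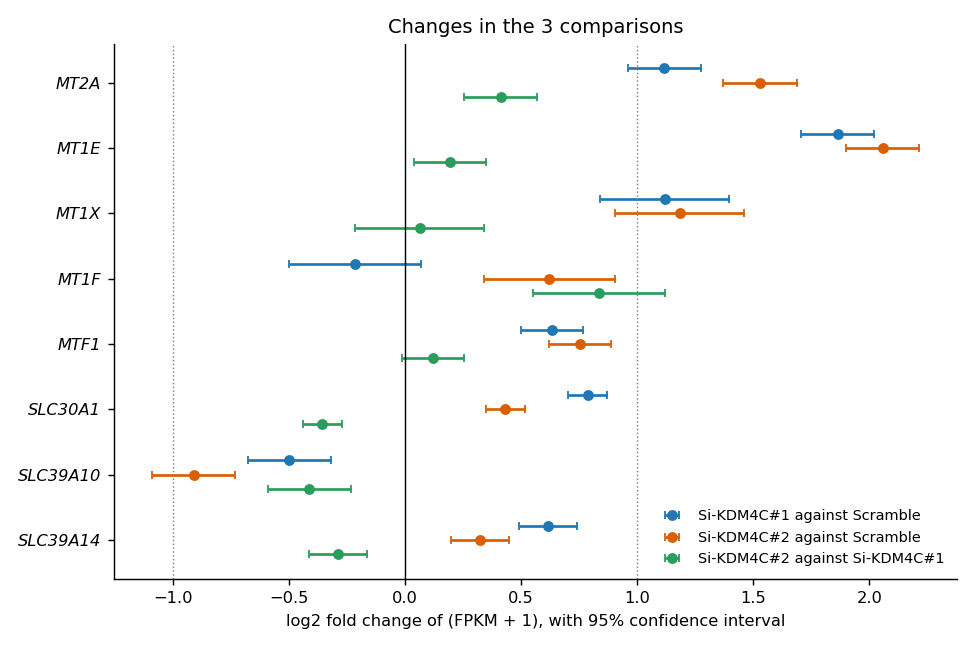
Log2 fold change of FPKM + 1 for each member, with 95% confidence intervals from limma-trend, for each siRNA against Scramble and for Si-KDM4C#2 against Si-KDM4C#1. Dotted lines mark a fold change of 2. The points of MT2A, MT1E and MT1X lie to the right of the upper dotted line in both comparisons with Scramble. The intervals of MT2A with Si-KDM4C#1 (from 0.96) and of MT1X with Si-KDM4C#1 (from 0.84) and Si-KDM4C#2 (from 0.90) cross that line. MT1F lies on different sides of 0 in the comparisons with Scramble, with an interval that includes 0 for Si-KDM4C#1.

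Of 11 other metallothionein genes looked for, only the pseudogene MT1DP was listed. It was at 0, 1.65 and 0.306 FPKM in Scramble, 1.16, 1.79 and 0.652 after Si-KDM4C#1, and 1.01, 1.68 and 2.15 after Si-KDM4C#2. The groups overlapped and it passed the FDR limit in neither comparison with Scramble (0.22 and 0.0824, limma-trend).

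The other zinc exporters changed in both directions. Of 10 ZnT genes looked for, 6 were tested, and with Si-KDM4C#1 2 rose, 2 fell and 2 did not pass FDR < 0.05 (limma-trend). With Si-KDM4C#2 1 rose, 4 fell and 1 did not pass, and none passed the fold limit with either siRNA. The median log2 fold change of the 6 was 0.04 and -0.37. SLC30A5 and SLC30A6, exporters of the secretory pathway, rose with Si-KDM4C#1 (0.26 and 0.61) and fell with Si-KDM4C#2 (-0.59 and -0.19). SLC30A9 passed the limit with neither (FDR 0.467 and 0.22).

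Of 12 other ZIP importers, 8 were tested. With Si-KDM4C#1 4 rose and 4 fell, and SLC39A3 and SLC39A7 were called higher. SLC39A7 (ZIP7), which releases zinc from the endoplasmic reticulum, was at 36.1 ± 1.9 FPKM (SD, n = 3) in Scramble, 81.8 ± 4.4 after Si-KDM4C#1 and 50.3 ± 2.3 after Si-KDM4C#2. Its log2 fold change was 1.16 (FDR 1.16e-07, limma-trend) with Si-KDM4C#1 and 0.47 (FDR 6.23e-05) with Si-KDM4C#2. SLC39A3 was at 2.90 ± 0.19, 8.20 ± 0.87 and 2.75 ± 0.36 FPKM in the same order, so that only the Si-KDM4C#1 libraries stood apart. The difference between the siRNAs was -1.29 (FDR 1.57e-06), the 1 call past both limits in the ZIP list in that comparison.

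With Si-KDM4C#2 1 of the 8 ZIP genes rose, 2 fell and 5 did not pass. SLC39A6, the relative of SLC39A10 with which it forms a complex, fell with both siRNAs, from 75.3 ± 4.5 FPKM to 57.6 ± 4.0 and 52.0 ± 4.1. Its log2 fold change was -0.38 (FDR 0.001, limma-trend) and -0.53 (FDR 0.00016). SLC39A1, a plasma membrane importer, rose with Si-KDM4C#1 (0.59) and fell with Si-KDM4C#2 (-0.26). The ZIP genes as a list had a median log2 fold change of 0.01 and -0.10, beside -0.03 and 0.06 over all genes.

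**Figure D5:**
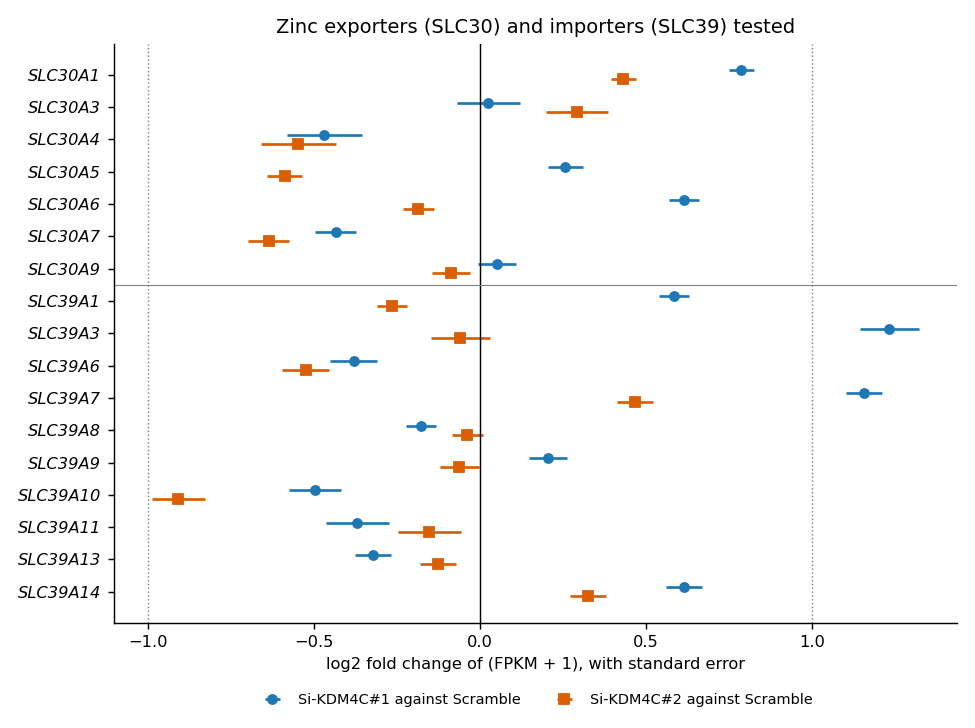
Log2 fold change of FPKM + 1, with standard errors from limma-trend, of all zinc exporters (SLC30, above the line) and importers (SLC39, below it) tested, with Si-KDM4C#1 (circles) and Si-KDM4C#2 (squares) against Scramble. Dotted lines mark a fold change of 2. SLC30A1, SLC39A7 and SLC39A14 are among those to the right of 0 with both siRNAs, and SLC39A6 and SLC39A10 among those to the left.

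Metallothioneins also bind copper, and 8 of 9 genes of copper handling were tested. With Si-KDM4C#1 3 rose, 4 fell and 1 did not pass (limma-trend), and COX17 and ATP7A were called lower. COX17, which hands copper to cytochrome c oxidase, went from 7.92 ± 0.67 FPKM (SD, n = 3) in Scramble to 2.57 ± 0.14 after Si-KDM4C#1 and 10.8 ± 1.1 after Si-KDM4C#2, on either side of Scramble. ATP7A, a copper exporter, fell from 9.06 ± 0.28 to 2.75 ± 0.32 and 5.11 ± 0.40 FPKM. With Si-KDM4C#2 4 rose and 4 fell, with none past the fold limit. SLC31A1, the copper importer, had log2 fold changes of 0.40 and -0.24, and the copper and zinc enzyme SOD1 of -0.19 and 0.20.

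Of 11 genes of iron handling, 10 were tested, since SLC39A14 also carries iron. With Si-KDM4C#1 5 rose, 3 fell and 2 did not pass, and SLC11A2 and IREB2 were called lower (limma-trend). SLC11A2 (DMT1), an iron importer, was at 25.5 ± 1.1, 10.9 ± 0.53 and 18.2 ± 0.047 FPKM in Scramble, Si-KDM4C#1 and Si-KDM4C#2. IREB2, an RNA-binding regulator of iron genes, was at 31.3 ± 0.77, 9.69 ± 0.61 and 22.7 ± 0.61 FPKM. With Si-KDM4C#2 3 rose, 6 fell and 1 did not pass. The ferritin chains FTL and FTH1 rose with both siRNAs, FTL by 0.43 and 0.37 and FTH1 by 0.21 and 0.39 on the log2 scale. The transferrin receptor TFRC rose by 0.20 with Si-KDM4C#1 and fell by 0.58 with Si-KDM4C#2. STEAP3, a ferrireductase, had log2 fold changes of 0.28 and -0.89, and -1.18 between the siRNAs (FDR 2.6e-08).

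Of 8 genes that respond to glucocorticoids, as metallothioneins do, or encode their receptor (NR3C1), 7 were tested. With Si-KDM4C#1 4 rose, 1 fell and 2 did not pass, and with Si-KDM4C#2 3 rose, 3 fell and 1 did not pass (limma-trend). The receptor gene NR3C1 is among those that rose with each siRNA (0.34 and 0.56). FKBP5, a chaperone of the receptor, rose by 0.50 and 1.24, the latter past the fold limit. DUSP1, a phosphatase of MAP kinases, rose by 1.13 with Si-KDM4C#1 (FDR 1.08e-06) and was at -0.12 with Si-KDM4C#2 (FDR 0.214). TSC22D3 (GILZ) fell by 1.03 and 0.47, and the kinase SGK1 rose by 0.62 and 0.50. The list did not move in 1 direction with either siRNA.

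The neighbours of the metallothionein cluster, within 500000 bases on either side, were looked at to see whether the wider region rose. Of 13 tested, 3 rose and 6 fell with Si-KDM4C#1 and 4 rose and 6 fell with Si-KDM4C#2, and none was called higher (limma-trend). The nearest tested gene on the side of MT1X, the nucleoporin gene NUP93, rose by 0.64 (FDR 8.77e-07) and 0.18 (FDR 0.00454). On the other side BBS2, a gene of the primary cilium, was at -0.29 (FDR 0.000494) and 0.01 (FDR 0.826). SLC12A3, a sodium chloride transporter, was called lower with both, at 76.9, 13.3 and 29.4 FPKM, as was the pseudogene RPS24P17 that lies within its span. The median log2 fold change of the 13 was -0.17 and -0.30, beside -0.03 and 0.06 over all genes. The window and the neighbours named were chosen after the values were seen.

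As a description over the 9 libraries, the genes whose log2 FPKM followed MT2A most closely were PTMA (Pearson's r 0.997), MYBL2 (0.996) and PPP1R14B (0.995), and 428 of 14355 genes had r over 0.95. For SLC30A1 they were MAGOH (0.998), RPS21 (0.998) and PSMD11 (0.997), with 745 genes over 0.95. The 9 libraries fall into 3 groups, which these values share.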

How the data were processed

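Total RNA of the cells labelled Huh7 was sequenced paired-end on an Illumina NovaSeq (NEB Next Ultra RNA kit). FPKM values were deposited by the authors, each library in its own list, with gene identifier and symbol. The submitters' processing notes name FastQC 0.11.5, HISAT2 2.1.0, StringTie 1.3.3b, featureCounts, DESeq 1.28.0 and the GRCh38 build, with no role or order. The annotation release and any scaling between libraries are not given in the sources used here, and neither is the handling of strand or of fragments that match several genes. Multiplied by GENCODE 29 exon lengths and a fitted total per library, the FPKM values of 32080 of 32906 genes came out whole (within 0.05) in all libraries. This gave the totals and the fragments behind each value, and intervals on them would cover counting error only.

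Genes whose mean reached 1 FPKM in any group were compared on log2(FPKM + 1) with limma-trend (limma 3.58.1, R 4.3.3), all 9 libraries in 1 fit without covariates, with Benjamini-Hochberg adjustment over the 14363 genes (FDR). Calls needed FDR < 0.05 and a fold change > 2, and "rose" or "fell" stands for FDR < 0.05. The fits were tested on simulated data. Exact permutation tests were two-sided. Groups came from the labels of the libraries, and all 9 libraries were used. The members and all gene lists were chosen with earlier results of these data known. The named genes were all listed members and, of each list, genes called in a comparison and the 3 with the highest mean FPKM. The neighbours of the metallothionein cluster and NR3C1 fall outside this rule.

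Alternatives were a pseudocount of 0.1, quantile normalization, no filter, a minimum of 1 FPKM in each library (11171 genes), a replicate block, fits of the 6 libraries compared, FDR without a fold limit, and leaving out each library. After the data had been seen, limma voom on recovered fragments (at least 10 in at least 3 libraries, 16010 genes), median-ratio scaling and lowess adjustments for GC content and exon length (span 0.3) were added. Promoters came from the RefSeq table (GRCh38.p14), in which 5 of the 8 listed members had an entry. All else was done in Python 3.11.15 (numpy 2.4.6, pandas 2.3.3, matplotlib 3.10.9).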

Additional observations from a re-analysis of the deposited data

Results flagged for a closer look

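The estimated changes of MT1F had opposite signs with the 2 siRNAs, but only the rise with Si-KDM4C#2 passed the FDR limit. All 3 Si-KDM4C#2 libraries were above the Scramble libraries. The mean with Si-KDM4C#1 was below that of Scramble, but these groups overlapped (log2 fold change -0.21, FDR 0.161, limma-trend). The direct difference between the siRNAs was 0.84 on the log2 scale (FDR 0.000282, limma-trend). The values rest on 19 to 77 fragments per library, and MT1F passed the filter on low values only through its mean with Si-KDM4C#2 (2.06 FPKM, against 0.994 in Scramble and 0.708 with Si-KDM4C#1). With no filter the FDR of the direct difference was 0.00156. The cause was not tested.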

How the results depend on the processing

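The fold change limit is what holds the counts down. By FDR alone, Si-KDM4C#1 had 6 members higher, against 31.7% of all genes, and 1 lower, against 33.9%. For Si-KDM4C#2, 7 members were higher, against 34.4% of genes, and 1 was lower, against 25.0%. Between the siRNAs, 3 members were higher, against 35.9% of genes, and 3 lower, against 26.5%. MT1F, past the filter on low values only through Si-KDM4C#2, is among the 7 and among the 3 higher between the siRNAs. With Si-KDM4C#2, 1 member (SLC39A10) was called lower after quantile normalization and with limma voom, and 0 to 1 when a library was left out (1 without Si-KDM4C#2 replicate 2). Between the siRNAs, 1 member (MT1F) was called higher with a pseudocount of 0.1 and with limma voom. MT1X between the siRNAs turned negative with quantile normalization (-0.058), limma voom (-0.054), exon length adjustment (-0.026) and median-ratio scaling (-0.017), and ran from -0.00296 to 0.17 when a library was left out. The difference of MT1E between the siRNAs was not past the FDR limit with no filter (0.0851), limma voom (0.37) or adjustment for GC content (0.112), exon length (0.418) or median ratios (0.29). With GC adjustment SLC30A1 took the place of MT2A among the 3 members called higher with Si-KDM4C#1, and 2 were left with quantile normalization (without MT2A) and without Scramble replicate 2 (without MT1X). With Si-KDM4C#2, 4 were called higher with limma voom and with a pseudocount of 0.1 (MT1F added). The cause was not tested. MT1F could not be tested with at least 1 FPKM in every library. Libraries with the same replicate number did not deviate together (mean r 0.016, from -0.046 to 0.055 over 9 pairs, 4 libraries closest to their own number), and with the replicate number as a block 3 members were called higher and 0 lower with each siRNA. The other log2 fold changes of members kept direction and side of the FDR limit (227 values, and 209 with a library left out), except for those of MT1E, MT1F and MTF1 given with these genes above. Over all genes, calls higher and lower were 580 and 694, 373 and 330, and 634 and 358 in the 3 comparisons, against 1199 and 1824, 873 and 1120, and 1549 and 1017 with limma voom, 900 and 1402, 758 and 685, and 1327 and 610 with a pseudocount of 0.1, 243 and 372 with Si-KDM4C#2 after GC adjustment, and 501 and 451 between the siRNAs after median-ratio scaling. The low fragment counts of MT1F and MT1X limit their precision.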
